A study of Mus musculus with 9 samples.

Results

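Atp2b1, Atp2b2, Atp2b3 and Atp2b4 encode the plasma membrane calcium pumps, also called PMCA pumps, and their RNA was followed here in testes of Tmem203 null and wild-type (WT) mice. Members were all probe sets annotated to 1 of these genes and to no other gene, where a probe set is the group of short probes that reports 1 transcript on an Affymetrix array. The 4 genes, of 18193 genes with such a probe set, had 9 probe sets, with 3 for Atp2b1, 3 for Atp2b2, 2 for Atp2b3 and 1 for Atp2b4. None was left out. All 9 reached a log2 signal of 5, the detection level of the study's methods, on every array.

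The PMCA pumps use ATP to move calcium ions out of the cytosol across the cell's outer membrane. A tail at the C-terminus holds the pump back at resting calcium and lets go when calcium in the cytosol rises. Basigin or neuroplastin, single-pass membrane proteins, assemble with the pumps and bring them to the cell surface. ATP2B1 is found in most tissues, ATP2B2 and ATP2B3 are best known from neurons, ATP2B2 also from the hair cells of the inner ear, and ATP2B4 is the main PMCA pump of the sperm tail, where its loss leaves mouse sperm immotile.

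The arrays were made to find which genes differ in testes that lack Tmem203, a membrane protein of the endoplasmic reticulum. Testes came from untreated C57BL/6J mice of 24 weeks of age, 4 WT and 5 Tmem203 null samples. The null allele lacks the start codon and some of the 5′ UTR, and carries an FRT scar from Flpe recombination in their place. The allele is not limited to a cell type, so that every cell of the null testis carried it, somatic cells included. The labels do not say whether each array was a separate animal, and p-values therefore measure the spread between these samples, which may be partly technical.

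The reference sequence just before the start of transcription is shown for Atp2b1, Atp2b2 and Atp2b4, the pumps in the RefSeq promoter table. They differ in the makeup of this region, and a link between this makeup and the signals was not tested. Each line gives 230 bases, 5′ to 3′ on the gene's strand, from 250 to 21 bases before the most upstream start listed, in build GRCm38.p6. Capitals mark GGAAA or its reverse complement, the core letters bound by NFAT, a factor that the calcium-dependent phosphatase calcineurin turns on.
Atp2b1: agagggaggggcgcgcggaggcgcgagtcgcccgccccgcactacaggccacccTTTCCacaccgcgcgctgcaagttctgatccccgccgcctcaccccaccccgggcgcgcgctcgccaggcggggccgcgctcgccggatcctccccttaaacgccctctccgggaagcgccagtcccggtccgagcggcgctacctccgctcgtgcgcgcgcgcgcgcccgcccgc
Atp2b2: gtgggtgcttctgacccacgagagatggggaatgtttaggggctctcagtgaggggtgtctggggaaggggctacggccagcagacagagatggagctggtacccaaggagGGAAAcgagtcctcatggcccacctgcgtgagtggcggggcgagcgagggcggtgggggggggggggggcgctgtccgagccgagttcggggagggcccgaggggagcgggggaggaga
Atp2b4: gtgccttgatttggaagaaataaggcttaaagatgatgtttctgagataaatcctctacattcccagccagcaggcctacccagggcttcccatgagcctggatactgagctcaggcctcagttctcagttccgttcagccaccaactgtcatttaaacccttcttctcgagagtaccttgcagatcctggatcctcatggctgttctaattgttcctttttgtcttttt
The Atp2b1 window is chr10:98914392-98914621 on the plus strand, the Atp2b2 window chr6:114042101-114042330 on the minus strand and the Atp2b4 window chr1:133753768-133753997 on the minus strand. G and C made up 77.8% of the Atp2b1 window, 68.7% of the Atp2b2 window and 46.1% of the Atp2b4 window, against a median of 51.7% over 32851 promoter windows of the same length. CpG steps numbered 40, 14 and 2 in the same order, against a median of 5. Both strands were searched for 3 motifs. Of the pumps' promoter entries in RefSeq (2 for Atp2b1, 3 for Atp2b2 and 1 for Atp2b4), only those shown were described. Which start is used in testis was not tested. GGAAA was found once in the Atp2b1 window, at base -196 on the reverse strand, and once in the Atp2b2 window, at base -139, and 52.6% of all windows held it. TGACG, the core of the cyclic AMP response element, and CACGTG, an E-box, were in none of these windows, and were in 15.9% and 5.3% of all windows.

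Signals below are log2 values, in which 1 unit is a doubling, and every difference is null minus WT with its standard error (SE) from limma. A probe set passed the test at an adjusted p under 0.05 over all 45037 probe sets. In bulk testis, fewer cells of a type and less RNA per cell cannot be told apart. Tmem203 itself was at 9.67, 9.91, 9.93 and 9.71 in WT samples and between 9.06 and 9.13 in null samples, a difference of -0.70 (SE 0.06; limma adjusted p = 2.87e-04). Where its probe set lies relative to the replaced part is not known here, so that the remaining signal checks the labels only by its fall. Array medians lay between 6.96 and 7.05, and pairs of arrays correlated with r from 0.993 to 0.998 across probe sets. The difference between 3′ and 5′ control probe sets, a sign of RNA integrity, was 0.93 ± 0.01 in WT and 0.85 ± 0.04 in null samples for Gapdh (SD, n = 4 and 5; exact two-sided permutation p = 0.0159, the smallest these sample numbers allow), and 0.60 ± 0.04 and 0.58 ± 0.04 for Actb (exact permutation p = 0.365).

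Of the 9 PMCA probe sets, 4 were higher in null testes, 1 was lower and 4 did not pass the test. Over all probe sets, 4.12% passed as higher and 3.36% as lower. The probe sets that rose were the 3 of Atp2b1 and 1 of Atp2b3, and the probe set that fell belonged to Atp2b2. Counted as genes through the probe set with the smallest p, 3 of the 4 pumps passed, Atp2b1 and Atp2b3 as higher and Atp2b2 as lower, against 8.03% of 16180 genes higher and 6.82% lower. The methods of the study also asked for a change of at least 1.5-fold, and under those thresholds only the Atp2b2 probe set remained, where 0.469% of all probe sets passed as lower. Differences ran from -1.09 to 0.55, with a median of 0.34 over the 9 probe sets and of -0.01 over all probe sets. The median was the value of Atp2b4. Over the other settings it ran from 0.20 with array weights to 0.48 without WT replicate 1. Without WT replicate 3 it was 0.22.

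**Figure D1:**
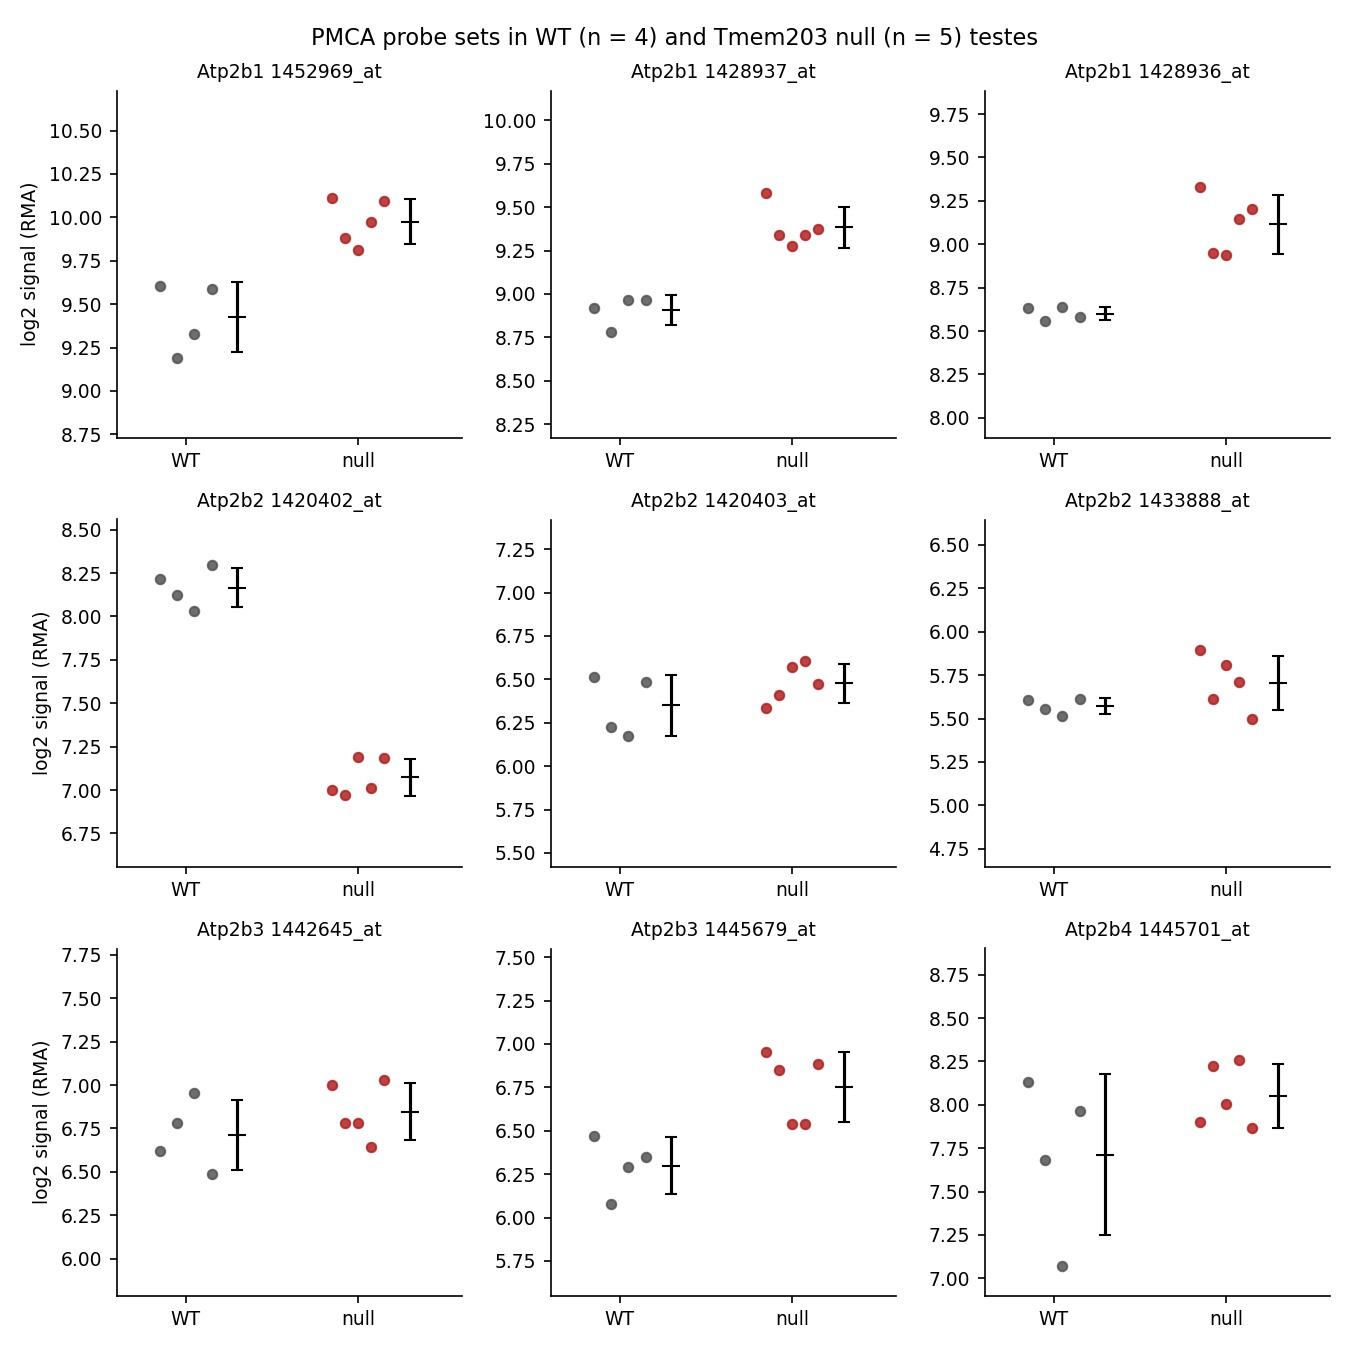
Log2 signal of each PMCA probe set in each sample (WT grey, null red; points are samples, with the mean and SD beside them). Panels have their own level but all span the same number of log2 units. Null samples lie wholly above WT for the 3 Atp2b1 probe sets and for 1445679_at of Atp2b3, wholly below WT for 1420402_at of Atp2b2, and overlap with WT in the other 4 panels.

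Atp2b1, the widely expressed pump, was higher in null testes by about 1.4-fold on all 3 of its probe sets. On 1452969_at, WT signals were 9.60, 9.19, 9.33 and 9.59, and null signals 10.11, 9.88, 9.81, 9.97 and 10.09. The lowest null sample was above the highest WT sample, and WT replicates 2 and 3 were the lowest of all. The means were 9.43 ± 0.20 and 9.97 ± 0.13 (SD, n = 4 and 5), a difference of 0.55 (SE 0.10; 1.46-fold; limma adjusted p = 0.01005).

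On 1428937_at of Atp2b1, WT signals were 8.92, 8.78, 8.96 and 8.97 and null signals 9.58, 9.34, 9.28, 9.34 and 9.37. Again no null sample reached down to WT. The difference was 0.48 (SE 0.07; 1.39-fold; limma adjusted p = 0.00397), from means of 8.91 ± 0.09 and 9.38 ± 0.12.

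On 1428936_at of Atp2b1, the WT samples were close together, at 8.63, 8.56, 8.64 and 8.58, and the null samples were at 9.33, 8.95, 8.94, 9.15 and 9.20. Null replicate 1 was the highest on each of the 3 Atp2b1 probe sets. The difference was 0.51 (SE 0.08; 1.43-fold; limma adjusted p = 0.00556), from means of 8.60 ± 0.04 and 9.11 ± 0.17. The 3 probe sets are annotated to the same transcript record and are not separate evidence for the gene. Each stayed past the test when any 1 of the 9 samples was left out, with adjusted p up to 0.0297. With all samples, each was below 1.5-fold.

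Atp2b2, known from neurons and hair cells, fell on 1 of its 3 probe sets. On 1420402_at, WT signals were 8.21, 8.13, 8.03 and 8.29, and null signals 7.00, 6.97, 7.19, 7.01 and 7.18. The groups stood apart, with a gap wider than the range of either group. The means were 8.17 ± 0.11 and 7.07 ± 0.11 (SD, n = 4 and 5), and the null signal was 2.13-fold lower (log2 difference -1.09, SE 0.07, 95% interval -1.26 to -0.93; limma adjusted p = 5.19e-05). By p-value this probe set was at rank 21 of all those tested. With any 1 sample left out the difference stayed between -1.14 and -1.05.

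The other Atp2b2 probe sets did not pass. On 1420403_at, WT signals were 6.52, 6.23, 6.17 and 6.48 and null signals 6.34, 6.41, 6.57, 6.60 and 6.47, a difference of 0.13 (SE 0.09; 95% interval -0.07 to 0.32; limma adjusted p = 0.431). The groups overlapped. On 1433888_at, WT signals were 5.61, 5.56, 5.52 and 5.61 and null signals 5.90, 5.61, 5.81, 5.71 and 5.50, a difference of 0.13 (SE 0.08; 95% interval -0.04 to 0.31; limma adjusted p = 0.353). Here too the groups overlapped, with the null samples more spread out than WT. Both intervals exclude a fall of the size seen on 1420402_at.

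Whether probe sets of 1 gene differed in their response was tested on the difference between each probe set and the brightest of the same gene within each array, which gave 5 comparisons. For Atp2b2, 1420403_at minus 1420402_at was -1.82 ± 0.09 in WT and -0.59 ± 0.12 in null samples, so that the gap changed by 1.22 (exact two-sided permutation p = 0.0159, adjusted over the 5 comparisons 0.0397). The gap between 1433888_at and 1420402_at went from -2.59 ± 0.07 to -1.37 ± 0.21, a change of 1.23 (exact permutation p = 0.0159, adjusted 0.0397). The response of 1420402_at thus differed from that of both other Atp2b2 probe sets, one of which, 1420403_at, is annotated to the same transcript record. Which exons each probe set reads is not given in the files used here. When the 3 Atp2b2 probe sets were averaged, the difference was -0.28 (SE 0.06; limma adjusted p = 0.0134), a much smaller fall than on 1420402_at alone. For Atp2b1 the gaps changed by -0.07 (exact permutation p = 0.397) and -0.03 (p = 0.714), and for Atp2b3 by 0.32 (p = 0.111).

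Atp2b3, the other pump known from neurons, had 1 probe set that passed and 1 that did not. On 1445679_at, WT signals were 6.47, 6.08, 6.29 and 6.35 and null signals 6.95, 6.85, 6.54, 6.54 and 6.89. The highest WT sample was just under the lowest null samples. The difference was 0.45 (SE 0.11; 1.37-fold; limma adjusted p = 0.0341), from means of 6.30 ± 0.16 and 6.75 ± 0.20 (SD, n = 4 and 5). The call rested on single samples, since without WT replicate 2, 3 or 4 or null replicate 1, 2 or 5 the limma adjusted p lay between 0.0582 and 0.0986. On 1442645_at, WT signals were 6.62, 6.78, 6.95 and 6.49 and null signals 7.00, 6.78, 6.78, 6.64 and 7.03, which overlapped. The difference there was 0.14 (SE 0.11; 95% interval -0.10 to 0.38; limma adjusted p = 0.492).

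Atp2b4, the pump of the sperm tail, did not pass on its single probe set, 1445701_at. WT signals were 8.13, 7.68, 7.07 and 7.97, and null signals 7.90, 8.22, 8.00, 8.26 and 7.86. WT replicate 3 was far below the other samples, and without it the groups overlapped in the same range. The means were 7.71 ± 0.47 and 8.05 ± 0.18 (SD, n = 4 and 5), a difference of 0.34 (SE 0.19; 95% interval -0.08 to 0.76; limma adjusted p = 0.322). Without WT replicate 3 it was 0.12 (limma adjusted p = 0.609). The interval excludes a fall of the size seen on 1420402_at of Atp2b2 but not a rise of the size seen for Atp2b1.

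**Figure D2:**
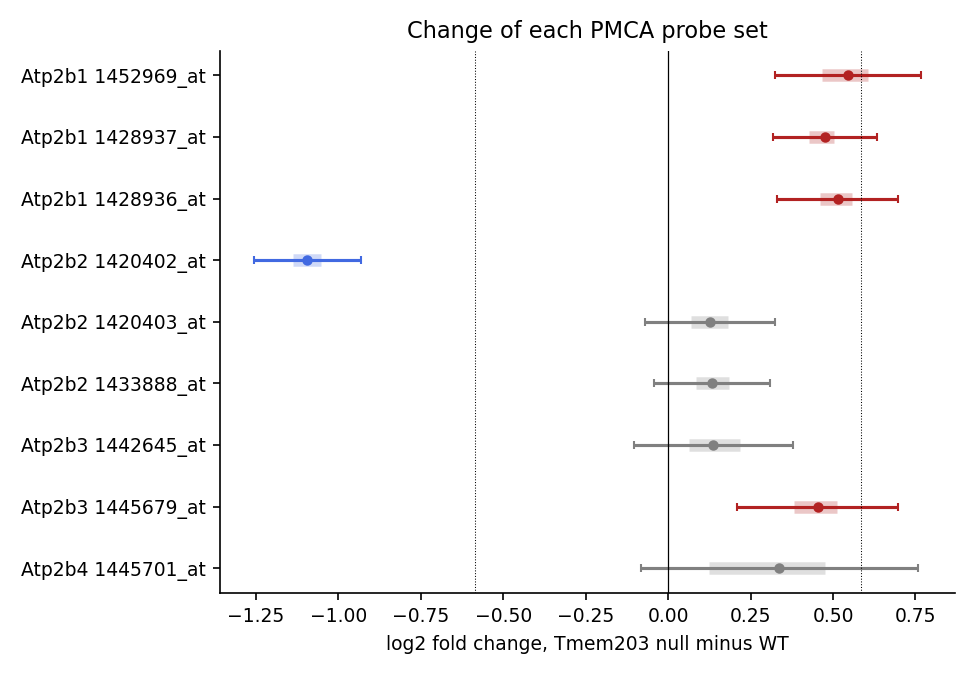
Log2 difference between null and WT for each PMCA probe set (points with 95% intervals; red passed as higher, blue as lower, grey did not pass). Pale bars give the range with each sample left out in turn and dotted lines mark 1.5-fold. The Atp2b2 probe set 1420402_at, at -1.09, is the one beyond 1.5-fold, and the Atp2b1 probe sets lie between 0.48 and 0.55.

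All null samples were above all WT samples on 4 of the 9 PMCA probe sets and below them on 1, where 5.68% and 6.07% of all probe sets showed the same. These were the probe sets that passed the test. The other 4, which overlapped, had differences from 0.13 to 0.34.

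**Figure D3:**
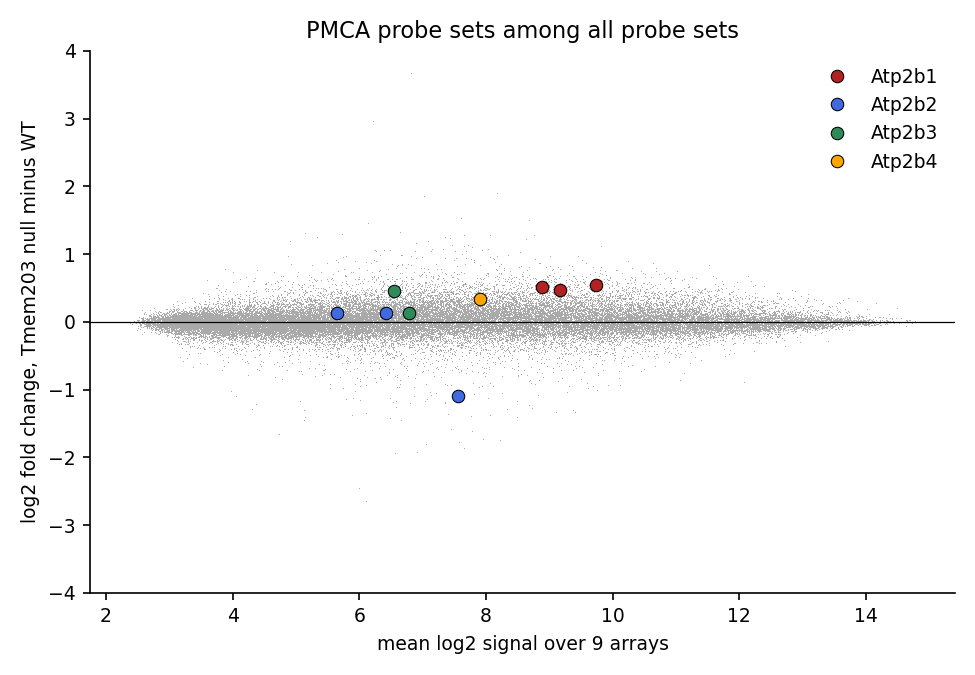
Log2 difference between null and WT against the mean log2 signal over the 9 arrays, for all tested probe sets (grey) and the PMCA probe sets (coloured by gene). The Atp2b1 probe sets lie above 0, between 0.48 and 0.55, and 1420402_at of Atp2b2 lies at -1.09, with other probe sets of the array further out on both sides.

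The genes whose signals most resembled the brightest probe set of each pump over the 9 samples were named by Pearson's r, as a description. For Atp2b1 they were Tnik, a kinase of the Wnt pathway (r = 0.995), Pag1, an adaptor of membrane rafts (0.990), Etl4 (0.989) and Ptpre, a tyrosine phosphatase (0.989). After the genotype means were subtracted, r with Atp2b1 was between 0.958 and 0.981 for these genes, which were picked for a high r on the same arrays. For Atp2b2, on 1420402_at, they were Mlkl, the membrane-permeabilising protein of necroptosis (0.991), Wipi1, an autophagy protein (0.989), Ifrd2 (0.988) and the collagen Col23a1 (0.988). For these genes r was between 0.513 and 0.688 after the genotype means were subtracted. For Atp2b3, on 1442645_at, the genes were Fggy, Eci1, Cmtm8 and Clta, the clathrin light chain (r = 0.980 to 0.969), and for Atp2b4 they were Ccdc157, Mgat5, Aktip and Setd5 (0.989 to 0.984). All these values share the same 9 arrays and their normalization.

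Marker genes of some testis cell types moved with genotype too, counted by the probe set of smallest p, by which 8.03% of all genes were higher and 6.82% lower. Of 12 measured Sertoli cell markers none was lower and 8 were higher in null testes, namely Ctsl (0.33), Gata4 (0.38), Sox9 (0.38), Amhr2 (0.31), Cldn11 (0.27), Clu (0.21), Wt1 (0.26) and Rhox5 (0.30). Mean signals of a marker list, here and below, were taken by the brightest probe set of each gene, not by the one counted. For the 12 Sertoli markers the mean was 10.61 to 10.75 in WT and 10.87 to 11.01 in null samples. Amh, the hormone of immature Sertoli cells, was at 5.51 in WT and 5.50 in null samples. Of 7 Leydig cell markers 4 were higher (Cyp11a1 0.50, Hsd3b1 0.64, Hsd17b3 0.45 and Nr5a1 0.37), with mean signals of 11.09 to 11.54 in WT and 11.45 to 11.71 in null samples, and of 10 macrophage markers 2 were higher (Mrc1 0.41 and Cd163 0.58), with mean signals of 8.52 to 8.99 and 8.92 to 9.15. Of 9 spermatogonial markers, Gfra1 (1.27) and Kit (0.46) were higher and Sohlh1 (-0.40) was lower, and of 10 spermatocyte markers Dmc1 (-0.33) was lower. None of 10 round spermatid and none of 10 elongating spermatid markers passed limma's test, with 2 and 1 of them lower at an unadjusted p under 0.05. The mean signal of the elongating spermatid markers was 14.15 to 14.18 in WT and 14.12 to 14.17 in null samples. RNA of these genes was thus measured in both groups, and which cells held it was not tested. These means lay near 14.79, the highest of all signals, and how well differences show at that level was not tested. The probe sets counted for the test were in part dimmer, such as that of Oaz3 at 6.06 in WT samples. Of the others, Vwf (-0.37) of 10 endothelial markers passed as lower. At an unadjusted p under 0.05, 2 endothelial markers were higher and 1 was lower, with a list median of 0.08. Tubb3 (0.46) of 8 neuronal markers passed as higher. At an unadjusted p under 0.05, 1 neuronal marker was higher and 3 were lower, with a list median of -0.14. No gene of 8 myoid cell, 2 red blood cell and 3 epididymal markers passed, where 2, 2 and 0 had an unadjusted p under 0.05. The Atp2b1 probe sets and 1445679_at of Atp2b3 rose, as did the Sertoli and Leydig markers that passed, and 1420402_at of Atp2b2 fell. The part of these cell types in those results was not tested.

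Known partners and regulators of the PMCA pumps were followed in 23 measured genes of 28 listed. Of these, 3 were higher, none was lower and 20 did not pass limma's test (6 higher and 3 lower at an unadjusted p under 0.05), where 8.03% of all genes passed as higher and 6.82% as lower. Their median difference was -0.07, against -0.03 over all genes. Homer1, a scaffold of calcium signalling that binds PMCA pumps, was higher on 1436387_at (0.46, SE 0.07; limma adjusted p = 0.00574), while its other 4 detected probe sets ran from -0.30 to 0.08 and none passed. Cask, a scaffold of the membrane-associated guanylate kinase family that binds the tail of ATP2B4, was higher on 1 of 4 detected probe sets (0.44, SE 0.11; limma adjusted p = 0.0362). Dlg2, a scaffold of the same family, was higher on 1 of 2 (0.25, SE 0.06; limma adjusted p = 0.0368). The calls for Cask and Dlg2 were each lost in 7 of the 9 fits with 1 sample left out, and with the brightest probe set of each gene no partner passed. Ywhab, a 14-3-3 protein, followed at 0.21 (limma adjusted p = 0.0551). Basigin (Bsg) differed by -0.09 (limma adjusted p = 0.285) and neuroplastin (Nptn) by 0.15 (adjusted p = 0.134). The other detected Nptn probe set differed by -0.19 (limma adjusted p = 0.273).

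**Figure D4:**
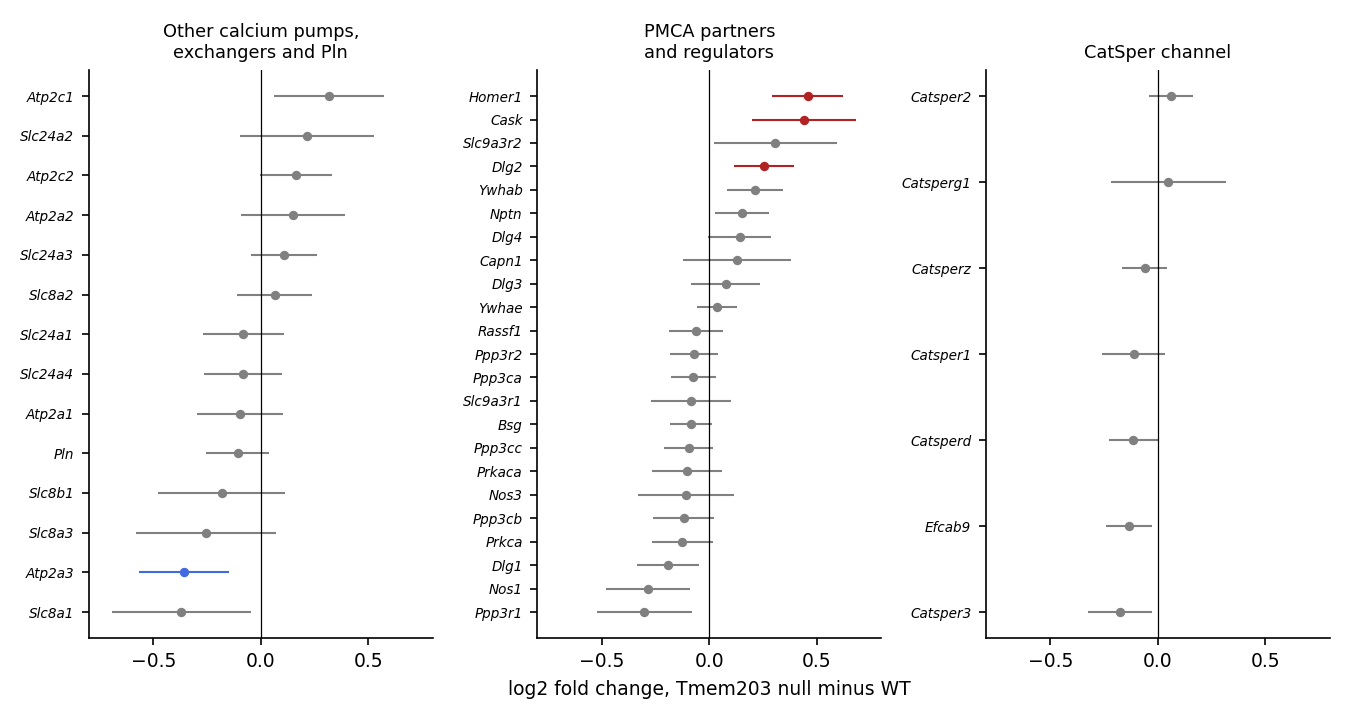
Log2 difference between null and WT with 95% intervals for 14 genes of other calcium pumps and exchangers (Pln included), 23 partners and regulators of the PMCA pumps and 7 CatSper genes, each shown by its probe set of smallest p. Genes that passed the test are Atp2a3 (-0.36) as lower and Homer1 (0.46), Cask (0.44) and Dlg2 (0.25) as higher.

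Other calcium pumps and exchangers were followed together with Pln, phospholamban, which inhibits the pump of the endoplasmic reticulum. Of these 14 measured genes, 1 was lower, none was higher and 13 did not pass limma's test (2 lower and 1 higher at an unadjusted p under 0.05), where 6.82% of all genes passed as lower and 8.03% as higher, and their median was -0.08. The gene that passed was Atp2a3, a pump of the endoplasmic reticulum (-0.36, SE 0.09; limma adjusted p = 0.0483), on 1 probe set, while its other detected probe set differed by 0.01 (adjusted p = 0.940). That call was lost in 8 of the 9 fits with 1 sample left out. Next by p-value were Atp2c1, the Golgi pump, at 0.32 (limma adjusted p = 0.128), Slc8a1, the sodium-calcium exchanger, at -0.37 (0.159) and Atp2c2 at 0.16 (0.234). The other detected probe set of Slc8a1 differed by 0.11 (limma adjusted p = 0.743). CatSper, the calcium channel of the sperm tail, lets in the calcium that the pumps remove. None of its 7 measured genes passed limma's test, with 2 lower at an unadjusted p under 0.05 and a median of -0.11. Their mean signal, by the brightest probe set of each gene, was 12.20 to 12.27 in WT and 12.07 to 12.19 in null samples. The groups were barely apart, with the lowest WT mean at 12.1973 and the highest null mean at 12.1865. The difference between these means was not tested. The CatSper genes with the smallest p were Efcab9 (-0.13; limma adjusted p = 0.125), Catsper3 (-0.17; 0.150), Catsperd (-0.11; 0.218) and Catsper1 (-0.11; 0.351).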

How the data were processed

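RNA of 4 WT and 5 Tmem203 null testis samples was hybridised to Affymetrix mouse expression arrays. The authors deposited a log2 signal for each probe set, made by RMA (background adjustment, quantile normalization between arrays and summary over probes), so that signals of different probe sets are not on 1 scale. No scan files were used here, and no batch information is given in the labels. The submitters' processing notes name limma.

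The genotypes were compared per probe set in R 4.3.3 with lmFit and eBayes of limma 3.58.1. The 64 manufacturer controls were dropped, and the Benjamini-Hochberg adjustment took in the remaining 45037 probe sets. The methods' thresholds add a change of 1.5-fold, a single annotated gene and 1 or more arrays with a log2 signal of 5. Symbols came from the platform annotation, matched through Entrez identifiers to RefSeq for GRCm38.p6 (34741 of 34945 single-gene probe sets). The code was tested on simulated data. Differences between probe sets of 1 gene were tested by exact permutation. Precision is limited by the number of arrays.

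All PMCA probe sets are named, with, of each other list, the genes that passed and up to 4 with the smallest p. For each pump, the 4 most similar genes are named. Of the marker lists the genes that passed are named. Bsg, Nptn and Amh were added for their roles after their values were seen. The members and lists were chosen with earlier results of these data known. The alternatives were other scalings, filters, variance models, weights, tests and thresholds, a replicate block, gene means and each sample left out. A RefSeq promoter for Atp2b3 was not used here. Arrays of other tissues were not analysed here.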

Additional observations from a re-analysis of the deposited data

How the results depend on the processing

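Of 171 values of the PMCA probe sets under 19 other settings with a value for each probe set, 158 kept their direction and their side of the threshold, 13 kept their direction but no longer passed, and 0 turned. Settings that changed only the filter, the variance model or the test left the difference itself as it was, so that its direction could not turn there. The fall of Atp2b2 on 1420402_at passed in every setting run. Of the 4 PMCA probe sets that rose, 0 passed limma's treat against 1.2-fold and 0 the thresholds of the methods, both of which ask for a larger change. For 1445679_at of Atp2b3, the adjusted p was 0.0818 with array weights, 0.106 with the replicate block and 0.0930 by the methods' t-test after Benjamini-Hochberg. Replicate numbers did not pair the samples (r between same-numbered samples from -0.06 to 0.08 over 4 pairs, own number the best match in 1), and with the block 3 PMCA probe sets were higher and 1 lower. With single samples left out, 3 to 4 were higher. With single samples left out, the changed gap between Atp2b2 probe sets stayed between 1.18 and 1.26 for 1420403_at and between 1.16 and 1.31 for 1433888_at. The adjusted exact permutation p was then 0.0714 or 0.0893, above the threshold. The unadjusted exact p was already the smallest that the remaining sample numbers allow. These fits could therefore not pass, and only the size of the gap can be compared. The gap of Atp2b1 1428936_at, which did not differ past the threshold, ran from -0.0923 to 0.0319 and turned without WT replicate 2 (0.0319) or WT replicate 3 (0.0119). Among the other pumps and exchangers with Pln the count that passed went from 1 to 0 with a further quantile normalization, array weights, the replicate block, treat, the thresholds of the methods and the methods' t-test at p under 0.01 or after Benjamini-Hochberg, and was 0 to 1 with single samples left out. Among the partners it went from 3 to 7 with array weights, 1 with the replicate block, 0 with treat, 0 under the thresholds of the methods, 6 by the methods' t-test at p under 0.01 and 0 with the brightest probe set, and was 1 to 4 with single samples left out. Among the CatSper genes it went from 0 to 1 with an intensity trend and robust variance and to 1 by the methods' t-test at p under 0.01. The cause of these differences was not tested.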
